A study of Homo sapiens with 9 samples.

Results

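The genes described here are 41 genes of macroautophagy, taken by name from the 26485 genes listed for each comparison: 39 that encode the machinery and cargo receptors, and the transcription factors FOXO1 and FOXO3. RNA was sequenced from MDA-MB-231, an established cell line of human triple-negative breast cancer, with 3 libraries of cells stably expressing a nonspecific (NS) shRNA, 3 of cells stably expressing ASAH1 shRNA #1 and 3 of cells stably expressing ASAH1 shRNA #2. ASAH1 encodes acid ceramidase, a lysosomal enzyme that hydrolyses ceramide, and the study asked which transcripts change when it is depleted. The design text calls the libraries biological replicates. It does not say whether the cells of a group were transduced separately, so p-values measure only the spread between these libraries. The control is a single nonspecific hairpin, which both knockdowns share.

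Macroautophagy encloses cytoplasm in a double membrane, the autophagosome, and delivers it to the lysosome. The ULK1 kinase complex starts the process, a class III phosphatidylinositol 3-kinase (PI3-kinase) complex marks the growing membrane, and lipid transfer proteins enlarge it. A ubiquitin-like conjugation system then attaches proteins of the ATG8 family, such as LC3, to the membrane, and receptors such as p62 (SQSTM1) bind both cargo and ATG8 proteins. Because acid ceramidase works in the lysosome, the compartment that receives autophagic cargo, these genes are of interest in an ASAH1 knockdown. Transcript levels do not measure autophagic flux, and lipidated LC3 was not part of these data.

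Read counts recovered from the deposited values were scaled to CPM, the reads of a gene relative to the size of its library, with TMM (trimmed mean of M-values) factors across all 9 libraries, so that every level below is on 1 scale. Reads on genes per library ran from 30989598 to 34867548 with NS shRNA, from 23806003 to 39791698 with shRNA #1 and from 35653318 to 49659106 with shRNA #2. ASAH1 itself stood at 133, 136 and 135 CPM with NS shRNA, 38.0, 41.4 and 40.7 CPM with shRNA #1 and 21.7, 22.5 and 21.3 CPM with shRNA #2. Its log2 fold change against NS shRNA was -1.76 (SE 0.050, adjusted p = 9.49e-09 by limma) with shRNA #1 and -2.63 (SE 0.057, adjusted p = 5.42e-10 by limma) with shRNA #2. Among markers of the line, VIM, CD44 and AXL were abundant, and EGFR was at 83.9 to 279 CPM. EGFR rose with both hairpins, by 1.18 and 1.29 (adjusted p = 9.02e-05 and 2.58e-05 by limma), and AXL by 0.38 and 0.24. VIM fell with both, with log2 changes of -0.27 and -0.67 (adjusted p = 0.000309 and 6.32e-07 by limma), and CD44 passed with neither. ESR1 and PGR were at no more than 0.0802 CPM in any library, while ERBB2 (59.3 to 102 CPM) and EPCAM (20.5 to 38.4 CPM) were not absent. The summed level of 8 leukocyte, endothelial and fibroblast markers was 112 to 127 CPM with NS shRNA, 113 to 135 CPM with shRNA #1 and 56.0 to 60.9 CPM with shRNA #2. Of these, CD3E and DCN were at or near 0 (at most 0.0650 CPM), and PTPRC and VWF did not exceed 0.341 CPM. CD68, a lysosomal membrane protein, was the largest single part of the sum in each group. Its log2 fold changes were 0.29 with shRNA #1 and -1.38 with shRNA #2. The other 3 were detected. PDGFRB, a receptor of mesenchymal cells (10.7 to 29.5 CPM), fell with both hairpins, with log2 changes of -1.03 and -1.22 (adjusted p = 9.60e-06 and 1.47e-06 by limma), and so did the endothelial PECAM1 (1.17 to 3.02 CPM), with -0.59 and -0.91 (adjusted p = 0.02 and 0.00154 by limma). COL1A1 (15.5 to 25.9 CPM) passed with neither. The summed fibroblast markers were at 47.2 to 48.4 CPM with NS shRNA, 35.5 to 39.2 CPM with shRNA #1 and 27.9 to 30.3 CPM with shRNA #2. The part of these markers in the results below was not tested. In bulk RNA, fewer cells that express a gene and less of its RNA per cell cannot be told apart.

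All 41 autophagy genes had enough reads to be tested, from 79 reads in a library for ATG10 upward. Fold changes against NS shRNA come from limma on log2(normalized count + 1), given with their standard error (SE), with p-values adjusted over all genes tested by the Benjamini-Hochberg method. A gene is said to have risen or fallen where its adjusted p was below 0.05. With shRNA #1, 20 of the 41 rose and 12 fell, 78.0% in all, where 66.1% of the 14341 genes tested passed (32.8% higher and 33.3% lower). With shRNA #2, 17 rose and 12 fell, 70.7%, where 66.9% of 14250 genes passed (33.5% higher and 33.4% lower). With so many genes changed in each knockdown, these shares say nothing particular about the 41. The median log2 fold change of the 41 genes was 0.12 with shRNA #1 and 0.077 with shRNA #2, against 0.0013 and 0.013 over all genes tested. Changes of at least 1.5-fold (0.58 on the log2 scale) were made by 8 of the 41 with each hairpin, where 29.3% and 32.8% of all genes made such a change, that is, 5 higher and 3 lower with shRNA #1 and 3 higher and 5 lower with shRNA #2. The plot of log2 fold changes by role shows receptors mostly to the right of 0 and genes of membrane supply mostly to the left with shRNA #2.

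**Figure D1:**
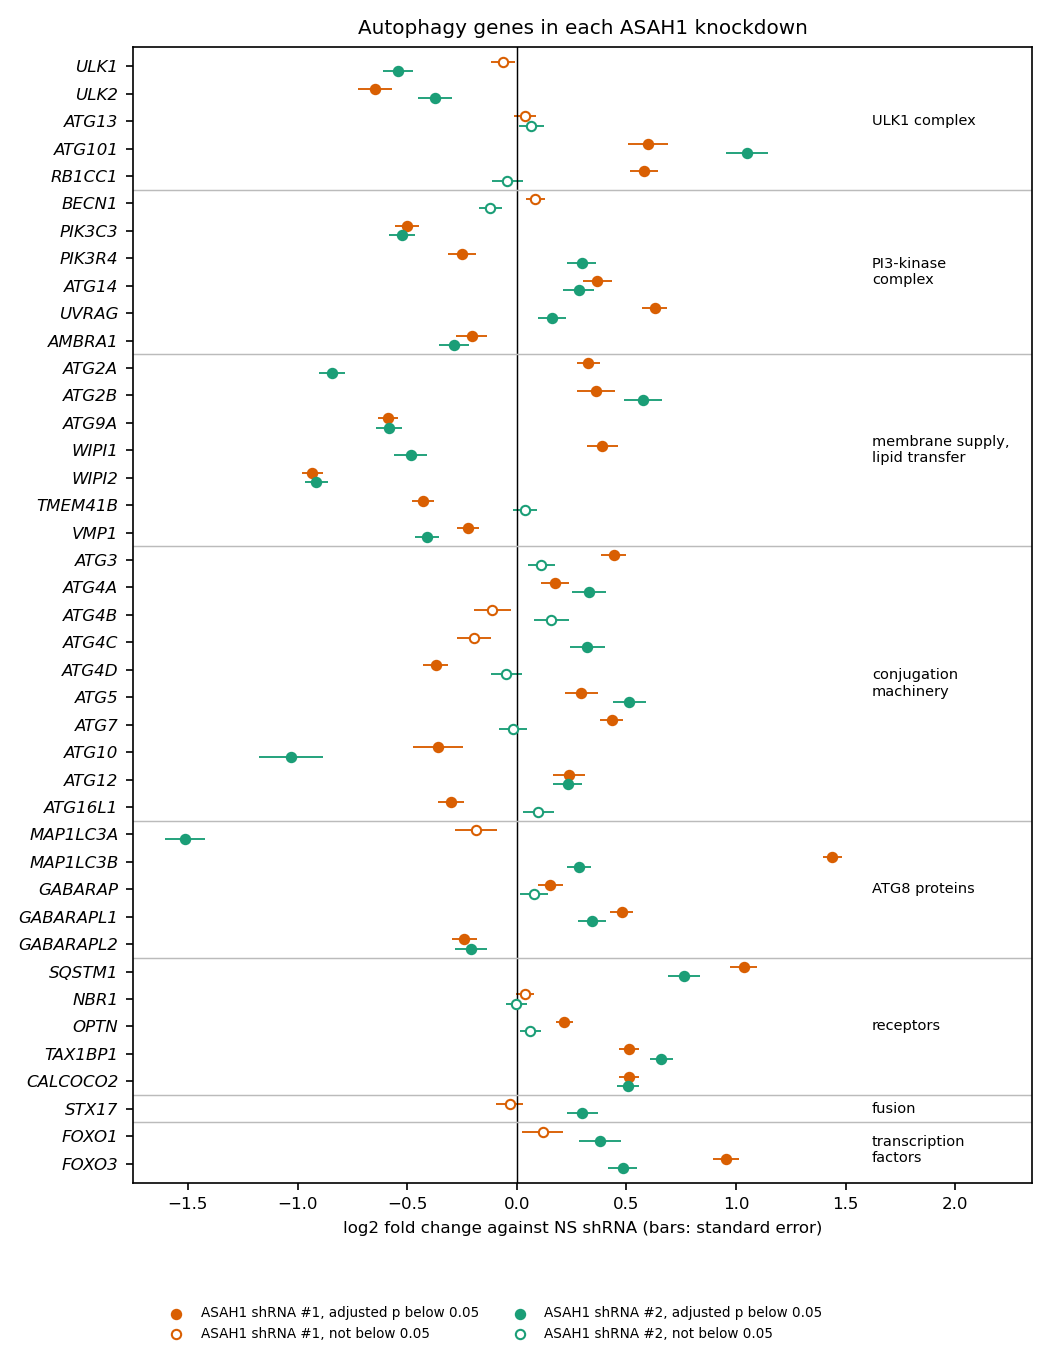
Log2 fold change of each of the 41 autophagy genes against NS shRNA (x axis) for ASAH1 shRNA #1 (orange) and ASAH1 shRNA #2 (green), grouped by role. Points are limma estimates from 3 against 3 libraries, bars are standard errors, and filled points have an adjusted p below 0.05. MAP1LC3B with shRNA #1 (1.44) and MAP1LC3A with shRNA #2 (-1.51) lie farthest out.

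Promoter sequences were searched for motifs of transcription factors known to act on autophagy and stress genes. RefSeq start sites gave 47 windows of 250 bases before to 50 bases after the start for 36 of the 41 genes (GRCh38.p14). Both strands were searched for the E-box CACGTG bound by TFEB and TFE3, the amino acid response element TGATGNAAT bound by ATF4, the antioxidant response element core TGACNNNGC bound by NRF2, and the FOXO site TGTTTAC. The E-box was in 2 of the 47 windows (those of ATG3 and ATG14), 4.26% against 7.26% of all 35116 promoters, and the amino acid response element in 0, against 0.991%. The antioxidant core was in 4 windows, 8.51% against 13.3% of all promoters, and the FOXO site in 1, 2.13% against 3.42%. The 4 windows with the antioxidant core belong to MAP1LC3B, CALCOCO2, ATG101 and FOXO3, whose values follow below. The window of FOXO3 is 1 of 4 in the table, the other 3 holding no motif, and is not printed. The windows of MAP1LC3B, CALCOCO2 and ATG101, each the only one found for its gene, are shown because they hold the antioxidant core. Beside them is that of SQSTM1, the most abundant of the 41 genes, which holds no motif. Those of ATG3 and ATG14, which hold the E-box, are not printed. The printed windows were picked after the values were seen, and their genes all rose with both hairpins. Capitals mark the motifs.
MAP1LC3B, chr16:87392086-87392385, plus strand, antioxidant core: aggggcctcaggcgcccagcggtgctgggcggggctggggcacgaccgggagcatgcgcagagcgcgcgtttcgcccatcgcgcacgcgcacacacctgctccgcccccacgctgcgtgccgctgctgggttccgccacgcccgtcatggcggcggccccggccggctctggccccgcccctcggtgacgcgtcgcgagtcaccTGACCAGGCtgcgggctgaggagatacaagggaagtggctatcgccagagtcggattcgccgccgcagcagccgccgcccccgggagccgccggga
CALCOCO2, chr17:48830785-48831084, plus strand, FOXO site and then antioxidant core, both on the reverse strand: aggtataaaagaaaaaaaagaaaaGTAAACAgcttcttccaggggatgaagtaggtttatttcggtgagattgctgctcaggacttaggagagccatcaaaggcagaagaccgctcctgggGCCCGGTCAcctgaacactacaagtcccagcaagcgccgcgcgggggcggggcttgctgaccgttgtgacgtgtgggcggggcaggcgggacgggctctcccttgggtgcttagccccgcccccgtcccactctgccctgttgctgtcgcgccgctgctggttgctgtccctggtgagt
ATG101, chr12:52069728-52070027, plus strand, antioxidant core: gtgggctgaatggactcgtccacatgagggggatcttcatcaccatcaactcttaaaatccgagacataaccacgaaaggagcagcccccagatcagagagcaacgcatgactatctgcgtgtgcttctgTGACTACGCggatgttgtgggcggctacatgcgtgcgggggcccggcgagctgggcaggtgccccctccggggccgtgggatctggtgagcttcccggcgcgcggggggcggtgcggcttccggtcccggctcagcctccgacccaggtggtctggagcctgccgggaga
SQSTM1, chr5:179806143-179806442, plus strand, first of 3 starts: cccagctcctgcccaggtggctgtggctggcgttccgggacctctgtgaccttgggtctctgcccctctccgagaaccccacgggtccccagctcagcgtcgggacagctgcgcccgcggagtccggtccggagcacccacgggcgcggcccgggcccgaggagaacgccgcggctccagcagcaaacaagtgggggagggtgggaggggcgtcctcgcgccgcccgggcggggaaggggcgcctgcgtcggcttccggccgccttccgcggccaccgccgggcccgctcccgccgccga
The starts of MAP1LC3B, CALCOCO2 and ATG101 used here lie inside the genes as GENCODE v44 bounds them. In MAP1LC3B the core runs from 46 to 38 bases before the start, in CALCOCO2 from 129 to 121 and in ATG101 from 120 to 112. A match of letters is not a binding site, and no binding was measured.

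Levels can be compared between genes per length of transcript. Divided by the length of the canonical GENCODE v44 transcript, SQSTM1 was the most abundant of the 41 with NS shRNA, at 359 ± 22.7 CPM per kb (SD, n = 3). GABARAP followed at 164 ± 10.5 (SD, n = 3), then OPTN at 82.9 ± 0.858 (SD, n = 3) and TAX1BP1 at 63.0 ± 2.06 CPM per kb (SD, n = 3). Of these 4 genes, 3 encode cargo receptors and GABARAP an ATG8 protein. ULK2, at 2.29 ± 0.0327 (SD, n = 3), and ATG10, at 1.87 ± 0.0698 CPM per kb (SD, n = 3), were the least abundant. Of the 40 pairs of neighbours in this order, 20 did not overlap between their NS shRNA libraries and 20 did, among them GABARAPL2, MAP1LC3B and NBR1, whose order is therefore not settled. The authors counted on UCSC genes, whose transcript lengths may differ.

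**Figure D2:**
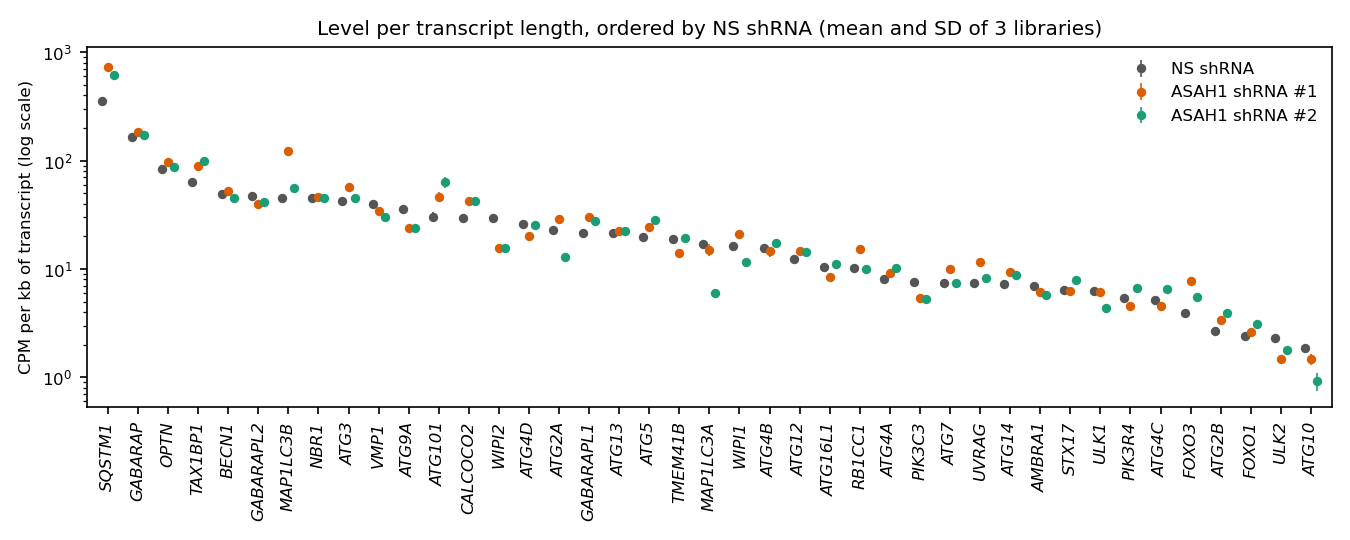
Level of each of the 41 genes per kb of canonical transcript (y axis, log scale), ordered by the NS shRNA mean. Points are means and bars the SD of 3 libraries for NS shRNA (grey), shRNA #1 (orange) and shRNA #2 (green). SQSTM1, at 359 CPM per kb with NS shRNA, lies above all others in each group, and MAP1LC3B with shRNA #1 and MAP1LC3A with shRNA #2 depart visibly from their neighbours.

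Among the cargo receptors SQSTM1, TAX1BP1 and CALCOCO2 rose with both hairpins and none fell. These proteins hold a ubiquitin-binding or cargo-binding part and a short motif that binds ATG8 proteins. With shRNA #1, 4 of the 5 rose, and with shRNA #2, 3 of the 5 rose. Over all genes tested, 32.8% and 33.5% rose. SQSTM1 (chr5:179806398-179838078, hg38), which encodes p62, the receptor of ubiquitinated aggregates and itself degraded by autophagy, was at 1052, 1064 and 947 CPM with NS shRNA, 1964, 2074 and 2259.9 CPM with shRNA #1 and 1764, 1578 and 1879 CPM with shRNA #2. The 3 groups did not overlap, and the libraries with shRNA #1 were the highest. Its log2 fold change was 1.04 (SE 0.062, adjusted p = 7.73e-07 by limma) with shRNA #1 and 0.76 (SE 0.072, adjusted p = 5.68e-06 by limma) with shRNA #2. TAX1BP1 (chr7:27739331-27844564), a receptor that also binds ubiquitin, was at 207, 219 and 220.1 CPM with NS shRNA, 313, 306 and 306 CPM with shRNA #1 and 341, 353 and 330.5 CPM with shRNA #2. Here the order of the knockdowns was the other way round, and the groups again did not overlap. The direct log2 ratio of shRNA #2 to shRNA #1 was 0.14 (adjusted p = 0.0142 by edgeR). It ran from 0.059 to 0.15 under the other settings, not all of which kept the call. The log2 fold change was 0.51 (SE 0.044, adjusted p = 7.02e-06 by limma) with shRNA #1 and 0.66 (SE 0.052, adjusted p = 1.74e-06 by limma) with shRNA #2. CALCOCO2, which encodes NDP52, a receptor of bacteria and damaged mitochondria, rose by 0.51 and 0.51 on the log2 scale (adjusted p = 6.94e-06 and 8.34e-06 by limma). OPTN, a receptor phosphorylated by TBK1, rose with shRNA #1 by 0.22 (adjusted p = 0.00105 by limma), while its value with shRNA #2 was 0.062 (adjusted p = 0.263 by limma). NBR1, a p62-related receptor, had log2 fold changes of 0.038 and -0.0014 and passed with neither hairpin.

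Of the ATG8 genes, MAP1LC3B rose with both hairpins and far more with shRNA #1. ATG8 proteins are the ubiquitin-like proteins that coat the autophagosome, in an LC3 and a GABARAP branch. MAP1LC3B (chr16:87383953-87404779), which encodes LC3B, was at 101, 97.0 and 95.6 CPM with NS shRNA, 266, 264 and 269 CPM with shRNA #1 and 114, 122 and 122 CPM with shRNA #2. All libraries with shRNA #1 lay far above the rest, and those with shRNA #2 lay just above the NS shRNA libraries without overlapping them. The log2 fold change was 1.44 (SE 0.043, adjusted p = 1.26e-08 by limma) with shRNA #1 and 0.28 (SE 0.055, adjusted p = 0.00091 by limma) with shRNA #2. MAP1LC3B2, a near-identical gene with which reads of MAP1LC3B may be confused, stood at 2.42, 2.58 and 2.87 CPM with NS shRNA, 5.57, 4.90 and 5.28 CPM with shRNA #1 and 2.94, 3.25 and 3.14 CPM with shRNA #2, so the split between the pair is uncertain.

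MAP1LC3A (chr20:34546854-34560345), which encodes LC3A, fell with shRNA #2, while its value with shRNA #1 did not pass. It was at 16.4, 17.5 and 15.4 CPM with NS shRNA, 13.2, 13.8 and 16.5 CPM with shRNA #1 and 5.47, 5.72 and 6.04 CPM with shRNA #2. The libraries with shRNA #2 lay far below the others, while shRNA #1 and NS shRNA overlapped. The log2 fold change was -1.51 (SE 0.091, adjusted p = 2.69e-07 by limma) with shRNA #2 and -0.19 (SE 0.095, adjusted p = 0.11 by limma) with shRNA #1, where leaving out shRNA #1 replicate 3 gave an adjusted p of 0.0146. The direct comparison of the hairpins gave -1.34 (SE 0.099, adjusted p = 4.43e-07 by edgeR). GABARAPL1 rose with both hairpins, by 0.48 and 0.34 (adjusted p = 3.29e-05 and 0.000837 by limma), and GABARAPL2 fell with both, with log2 changes of -0.24 and -0.21 (adjusted p = 0.00427 and 0.0288 by limma). GABARAP, the main member of the family by level per kb, rose by 0.15 with shRNA #1 (adjusted p = 0.0389 by limma) and had a value of 0.077 with shRNA #2 (adjusted p = 0.299 by limma). When 1 library at a time was left out, the call of GABARAP with shRNA #1 held only without NS shRNA replicate 1, with values from 0.11 to 0.20, and it was lost with no filter and with no trend. That of GABARAPL2 with shRNA #2 held only without NS shRNA replicate 3 or shRNA #2 replicate 3 (adjusted p up to 0.106 by limma), and it was lost with no trend. Among the summed levels per kb of the 5 ATG8 genes, MAP1LC3B made up 15.4% ± 0.388 (SD, n = 3) with NS shRNA, 31.6% ± 0.656 (SD, n = 3) with shRNA #1 and 18.3% ± 0.716 (SD, n = 3) with shRNA #2. The share of GABARAP was 55.5% ± 0.969 (SD, n = 3), 46.6% ± 0.645 (SD, n = 3) and 57.1% ± 0.677 (SD, n = 3) in the same order. For MAP1LC3A the shares were 5.76% ± 0.306 (SD, n = 3), 3.83% ± 0.356 (SD, n = 3) and 1.96% ± 0.0253 (SD, n = 3). A share depends on every gene in the sum, so a lower share is not by itself a fall of the gene. With shRNA #1 the share of GABARAP was lower although its mean level was 241 CPM, against 216 CPM with NS shRNA.

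In the conjugation system that attaches ATG8 proteins, ATG5 and ATG12 rose with both hairpins and ATG10 fell with both. ATG7 is the activating enzyme, ATG3 and ATG10 are its conjugating enzymes, ATG12, ATG5 and ATG16L1 form the complex that directs it to the membrane, and the ATG4 proteases process and release ATG8 proteins. With shRNA #1, 5 of the 10 genes rose and 3 fell, and with shRNA #2, 4 rose and 1 fell. That is 80% and 50% of them, against 66.1% and 66.9% of all genes. ATG5 rose by 0.29 and 0.51 and ATG12 by 0.24 and 0.23. The call of ATG12 with shRNA #1 (adjusted p = 0.0162 by limma) held, of the 6 fits that each left out 1 library, only in those without NS shRNA replicate 3 or shRNA #1 replicate 3 (adjusted p up to 0.0647 by limma in the others). ATG7 and ATG3 rose with shRNA #1, by 0.43 and 0.44, where their values with shRNA #2 were -0.016 and 0.11 and did not pass. ATG16L1 and ATG4D fell with shRNA #1, with log2 changes of -0.30 and -0.37, and with shRNA #2 had values of 0.098 and -0.047. ATG4A rose by 0.17 and 0.33, the former call holding only without NS shRNA replicate 3 when 1 library at a time was left out (adjusted p up to 0.123 by limma), and lost with no filter and with DESeq2. ATG4C rose with shRNA #2 by 0.32 and had -0.19 with shRNA #1 (adjusted p = 0.0509 by limma, but 0.0428 by edgeR), and ATG4B passed with neither (-0.11 and 0.16).

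ATG10 (chr5:81972023-82276857) had the fewest reads of the 41 genes. It was at 5.41, 5.78 and 5.78 CPM with NS shRNA, 5.01, 4.14 and 4.15 CPM with shRNA #1 and 2.37, 3.36 and 2.64 CPM with shRNA #2. The groups did not overlap, with shRNA #2 the lowest. The log2 fold change was -0.36 (SE 0.11, adjusted p = 0.018 by limma) with shRNA #1 and -1.03 (SE 0.14, adjusted p = 0.000101 by limma) with shRNA #2. The former call was lost without NS shRNA replicate 2, shRNA #1 replicate 2 or shRNA #1 replicate 3 (adjusted p up to 0.0715 by limma).

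In membrane supply and lipid transfer, WIPI2, ATG9A and VMP1 fell with both hairpins, whereas ATG2A and WIPI1 went opposite ways. ATG9A is a scramblase carried on vesicles that seed the autophagosome, ATG2A and ATG2B carry lipids into it, WIPI1 and WIPI2 bind the lipid made by the PI3-kinase complex, and TMEM41B and VMP1 are scramblases of the endoplasmic reticulum. With shRNA #1, 3 of the 7 genes rose and 4 fell, and with shRNA #2, 1 rose and 5 fell. These are 100% and 85.7% of the 7, against 66.1% and 66.9% of all genes. WIPI2 (chr7:5190196-5233840), which recruits ATG16L1 to the membrane, was at 135, 129 and 132 CPM with NS shRNA, 66.7, 70.1 and 70.9 CPM with shRNA #1 and 71.1, 68.4 and 70.6 CPM with shRNA #2. The knockdowns overlapped each other and lay far below NS shRNA. The log2 fold change was -0.93 (SE 0.048, adjusted p = 2.88e-07 by limma) with shRNA #1 and -0.91 (SE 0.053, adjusted p = 2.14e-07 by limma) with shRNA #2. ATG9A (chr2:219219380-219229717) was at 131, 139.7 and 132 CPM with NS shRNA, 89.2, 89.8 and 89.4 CPM with shRNA #1 and 92.0, 84.5 and 92.9 CPM with shRNA #2. As for WIPI2, the knockdowns overlapped each other and lay below NS shRNA, with log2 fold changes of -0.59 (SE 0.046, adjusted p = 3.51e-06 by limma) and -0.58 (SE 0.059, adjusted p = 9.79e-06 by limma). Another annotated protein-coding gene overlaps ATG9A on the same strand, as one does GABARAP, and shared reads cannot be told apart here. VMP1 fell with both hairpins, with log2 changes of -0.22 and -0.41 (adjusted p = 0.00321 and 6.65e-05 by limma).

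ATG2A and WIPI1 moved in opposite directions with the hairpins, as did PIK3R4 (below). These are 3 of the 41 genes, 7.32%, where 7.97% of 14074 genes passed in opposite directions and differed between the hairpins. ATG2A (chr11:64894546-64917209) was at 139, 151 and 149 CPM with NS shRNA, 175, 191 and 186 CPM with shRNA #1 and 84.4, 78.3 and 82.0 CPM with shRNA #2. No groups overlapped, with shRNA #1 above and shRNA #2 below NS shRNA. The log2 fold change was 0.33 (SE 0.052, adjusted p = 0.000384 by limma) with shRNA #1 and -0.84 (SE 0.059, adjusted p = 7.23e-07 by limma) with shRNA #2. WIPI1 (chr17:68420948-68457513) was at 31.2, 29.0 and 32.2 CPM with NS shRNA, 42.4, 41.7 and 37.5 CPM with shRNA #1 and 21.9, 23.3 and 21.0 CPM with shRNA #2. The order of the groups was the same as for ATG2A, with no overlap. Its log2 fold change was 0.39 (SE 0.070, adjusted p = 0.000862 by limma) with shRNA #1 and -0.48 (SE 0.074, adjusted p = 0.000184 by limma) with shRNA #2. ATG2B, the paralog of ATG2A, rose with both, by 0.36 and, just under the 1.5-fold line, 0.58 (adjusted p = 0.00408 and 0.000153 by limma), and TMEM41B fell with shRNA #1, with a log2 change of -0.43 (adjusted p = 5.08e-05 by limma), and had a value of 0.037 for shRNA #2 (adjusted p = 0.559 by limma).

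**Figure D3:**
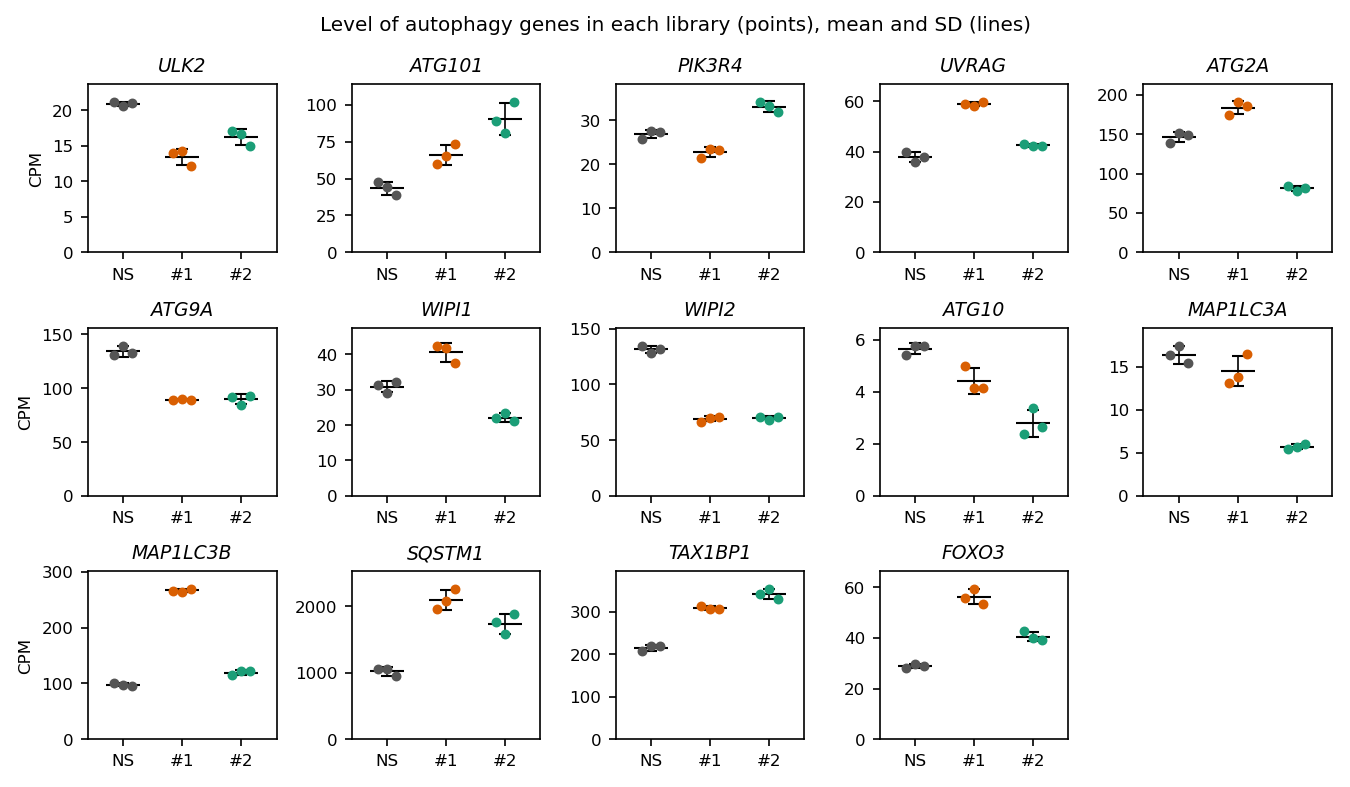
CPM (y axis, from 0) in each of the 9 libraries for 14 autophagy genes, namely those with a change of at least 1.5-fold and an adjusted p below 0.05 with a hairpin and those that moved in opposite directions. Points are libraries of NS shRNA (grey), shRNA #1 (orange) and shRNA #2 (green), and lines show the mean and SD of 3. WIPI2 and ATG9A lie at like levels in both knockdowns, whereas ATG2A and WIPI1 lie above NS shRNA with shRNA #1 and below it with shRNA #2.

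The ULK1 complex, a kinase (ULK1 or ULK2) with the subunits ATG13, ATG101 and RB1CC1 (FIP200), had members that rose and members that fell. With shRNA #1, 2 of the 5 rose and 1 fell, and with shRNA #2, 1 rose and 2 fell. That is 60% with each hairpin, against 66.1% and 66.9% of all genes. ULK2 (chr17:19770829-19867936) was at 21.2, 20.6 and 21.0 CPM with NS shRNA, 13.9, 14.2 and 12.1 CPM with shRNA #1 and 17.03, 16.6 and 14.97 CPM with shRNA #2. Both knockdowns lay below NS shRNA, shRNA #1 the lowest, with log2 fold changes of -0.65 (SE 0.078, adjusted p = 6.47e-05 by limma) and -0.37 (SE 0.077, adjusted p = 0.00145 by limma). ULK1 fell with shRNA #2, with a log2 change of -0.54 (adjusted p = 4.12e-05 by limma), and had a value of -0.062 with shRNA #1 (adjusted p = 0.342 by limma). ATG101 (chr12:52069246-52077495), which stabilises ATG13, was at 47.4, 44.5 and 38.7 CPM with NS shRNA, 59.7, 65.3 and 73.2 CPM with shRNA #1 and 89.0, 80.6 and 102 CPM with shRNA #2. The groups did not overlap, and among the NS shRNA libraries its coefficient of variation of 10.2% was the largest of the 41 genes. It rose by 0.60 (SE 0.090, adjusted p = 0.000286 by limma) with shRNA #1 and by 1.05 (SE 0.096, adjusted p = 4.84e-06 by limma) with shRNA #2. RB1CC1, the scaffold, rose with shRNA #1 by 0.58 (adjusted p = 3.58e-05 by limma), just under the 1.5-fold line, and had -0.042 with shRNA #2 (adjusted p = 0.616 by limma). ATG13 passed with neither (0.039 and 0.066).

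In the PI3-kinase complex, PIK3C3 is the catalytic subunit VPS34, PIK3R4 its regulatory subunit VPS15 and BECN1 the Beclin 1 scaffold, to which ATG14 or UVRAG binds, and AMBRA1 links the complex to ULK1. With shRNA #1, 2 of the 6 rose and 3 fell, and with shRNA #2, 3 rose and 2 fell. That is 83.3% with each hairpin, against 66.1% and 66.9% of all genes. PIK3C3 fell with both hairpins, with log2 changes of -0.50 and -0.53 (adjusted p = 3.45e-05 and 2.03e-05 by limma), and so did AMBRA1, with log2 changes of -0.21 and -0.29, the former call lost without NS shRNA replicate 3 or shRNA #1 replicate 3 (adjusted p up to 0.0955 by limma) and with no trend (0.0529). ATG14, which directs the complex to autophagosome formation, rose by 0.37 and 0.28 (adjusted p = 0.00076 and 0.00442 by limma). UVRAG (chr11:75815210-76144232), found instead in the endosomal form of the complex, was at 39.9, 35.9 and 37.8 CPM with NS shRNA, 58.8, 57.9 and 59.6 CPM with shRNA #1 and 43.1, 42.0 and 42.4 CPM with shRNA #2. The libraries with shRNA #1 stood well above the rest. Its log2 fold change was 0.63 (SE 0.057, adjusted p = 9.66e-06 by limma) with shRNA #1 and 0.16 (SE 0.063, adjusted p = 0.0423 by limma) with shRNA #2, and the latter call was lost under upper quartile rescaling, with DESeq2, with no filter, with no trend and in each fit that left out 1 library (adjusted p up to 0.171 by limma) other than NS shRNA replicate 1. PIK3R4 (chr3:130678934-130746829) was at 25.7, 27.6 and 27.4 CPM with NS shRNA, 21.4, 23.4 and 23.3 CPM with shRNA #1 and 34.1, 33.3 and 31.9 CPM with shRNA #2. No libraries overlapped between the groups. The gene went down with shRNA #1 and up with shRNA #2, with log2 changes of -0.25 (SE 0.064, adjusted p = 0.00688 by limma) and 0.30 (SE 0.067, adjusted p = 0.00251 by limma). BECN1 had values of 0.084 and -0.12 and passed with neither hairpin, although under upper quartile rescaling it passed with shRNA #2 (-0.17, adjusted p = 0.0164 by limma).

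FOXO1 and FOXO3 are transcription factors held in the cytoplasm by AKT, and their known targets include autophagy genes such as MAP1LC3B. FOXO3 (chr6:108559835-108684774) was at 28.1, 29.6 and 28.9 CPM with NS shRNA, 55.9, 59.3 and 53.4 CPM with shRNA #1 and 42.7, 39.8 and 39.1 CPM with shRNA #2. The groups did not overlap, and shRNA #1 was the highest. It rose by 0.95 (SE 0.058, adjusted p = 8.04e-07 by limma) with shRNA #1 and by 0.48 (SE 0.066, adjusted p = 7.97e-05 by limma) with shRNA #2. FOXO1 rose with shRNA #2 by 0.38 (adjusted p = 0.00534 by limma) and had 0.12 with shRNA #1 (adjusted p = 0.284 by limma). STX17, the SNARE that fuses the autophagosome with the lysosome, likewise rose with shRNA #2, by 0.30 (adjusted p = 0.00298 by limma), with -0.032 for shRNA #1 (adjusted p = 0.668 by limma).

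A direct comparison of shRNA #2 with shRNA #1 used the reads of the 9 libraries in 1 edgeR quasi-likelihood fit. Of the 41 genes, 12 were higher and 16 lower with shRNA #2 than with shRNA #1, 68.3% in all, where 63.3% of 14714 genes differed (31.1% higher and 32.1% lower). Upper quartile normalization in place of TMM gave 7 higher and 20 lower. Of all 14714 genes, 27.7% differed by at least 1.5-fold, 2426 of them lower and 1657 higher with shRNA #2. Among the 41, differences of this size were found for 6 genes, each lower with shRNA #2. These were MAP1LC3A, ATG2A with -1.18 (SE 0.053, adjusted p = 1.07e-08 by edgeR), MAP1LC3B with -1.16 (SE 0.047, adjusted p = 4.54e-09 by edgeR), WIPI1 with -0.88 (SE 0.069, adjusted p = 6.87e-07 by edgeR), ATG10 with -0.66 (SE 0.15, adjusted p = 0.00196 by edgeR) and RB1CC1 with -0.63 (SE 0.067, adjusted p = 8.79e-06 by edgeR). ATG7 and TMEM41B also differed, with log2 ratios of -0.46 and 0.46 (adjusted p = 1.34e-05 and 5.46e-06 by edgeR), as did PIK3R4, with 0.53 (SE 0.058, adjusted p = 9.70e-06 by edgeR). SQSTM1 and FOXO3 were lower with shRNA #2 than with shRNA #1, with log2 ratios of -0.28 and -0.48 (adjusted p = 0.00472 and 2.05e-05 by edgeR). For WIPI2, ATG9A, CALCOCO2, PIK3C3 and ATG12 no difference was detected, with ratios of 0.0098, -0.00089, -0.013, -0.034 and -0.012, the standard errors of all 5 lying between 0.042 and 0.068. The target ASAH1 was itself lower with shRNA #2, with a log2 ratio of -0.88 (adjusted p = 6.82e-08 by edgeR).

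**Figure D4:**
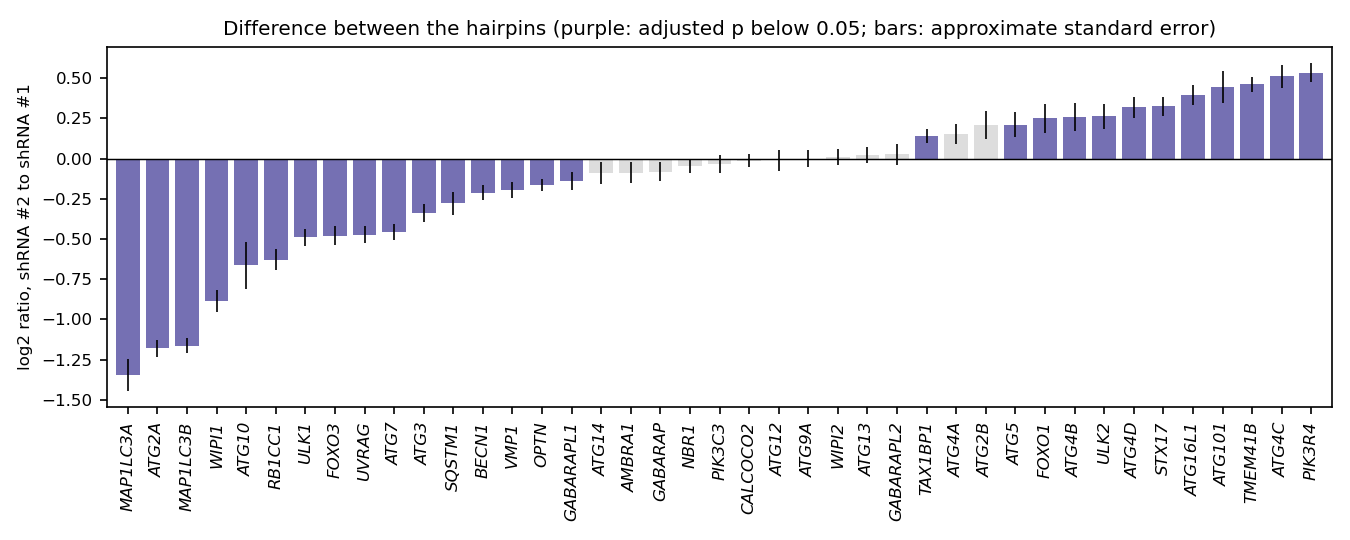
Log2 ratio of shRNA #2 to shRNA #1 (y axis) for each of the 41 genes in ascending order, from edgeR (quasi-likelihood) on all 9 libraries. Purple bars have an adjusted p below 0.05, grey bars do not, and lines show an approximate standard error. MAP1LC3A (-1.34), ATG2A (-1.18) and MAP1LC3B (-1.16) lie lowest and PIK3R4 (0.53) highest.

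Other genes of the pathway were taken from a list of 47, of which 46 were tested. With shRNA #1, 20 rose and 17 fell (80.4% of those tested, against 66.1% of all genes), and with shRNA #2, 13 rose and 19 fell (69.6% against 66.9%). The median log2 fold change was 0.016 and -0.051, against 0.0013 and 0.013 over all genes. Those with at least a 2-fold change were ATG16L2, MAP1LC3C, BNIP3, RETREG1 and VPS16. ATG16L2, a paralog of ATG16L1, fell, with log2 changes of -1.06 and -1.58 (adjusted p = 7.76e-06 and 2.77e-06 by limma). BNIP3, a mitophagy receptor induced by hypoxia, was at 298, 302 and 289 CPM with NS shRNA, 117, 116 and 122 CPM with shRNA #1 and 195, 200.3 and 206 CPM with shRNA #2. It fell with both, with log2 changes of -1.33 (SE 0.044, adjusted p = 2.29e-08 by limma) and -0.57 (SE 0.049, adjusted p = 3.41e-06 by limma). VPS16, a subunit of the tethering complexes of the lysosome, fell, with log2 changes of -0.72 and -1.09 (adjusted p = 1.11e-05 and 8.46e-07 by limma). RETREG1, a receptor of the endoplasmic reticulum, was at 0.818, 0.830 and 1.02 CPM with NS shRNA, 3.33, 2.63 and 2.61 CPM with shRNA #1 and 0.541, 0.596 and 0.455 CPM with shRNA #2. It rose with shRNA #1 by 1.64 and fell with shRNA #2, with a log2 change of -0.72 (adjusted p = 3.29e-05 and 0.0236 by limma), the latter lost with DESeq2, with no filter and without NS shRNA replicate 3 or shRNA #2 replicate 3 (adjusted p up to 0.0939 by limma). MAP1LC3C, a further LC3 gene, had 20 to 29 reads in a library with NS shRNA, 5 to 12 with shRNA #1 and 0 to 9 with shRNA #2. It fell with both (adjusted p = 0.00817 and 0.00384 by limma), but at so few reads its log2 change is poorly determined, from -1.69 to -1.03 with shRNA #1 and from -3.43 to -1.93 with shRNA #2 as 1 library was left out, and from -4.07 to -1.87 with shRNA #2 under the other settings.

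The list also holds upstream regulators and genes of fusion with the lysosome. Of 8 regulators, 5 rose and 2 fell with shRNA #1, and 5 rose and 0 fell with shRNA #2, which is 87.5% and 62.5% of them against 66.1% and 66.9% of all genes. They include MITF, a transcription factor of lysosomal and autophagy genes, which rose by 0.81 and 0.70 (adjusted p = 4.40e-06 and 1.76e-05 by limma), and its relative TFEB, which fell with shRNA #1, with a log2 change of -0.24, and rose with shRNA #2 by 0.70 (adjusted p = 0.0189 and 7.40e-05 by limma). MTOR, the kinase that restrains ULK1, rose by 0.71 and 0.44 (adjusted p = 0.000141 and 0.00203 by limma). Of 13 fusion genes, 6 rose and 4 fell with shRNA #1, and 3 rose and 9 fell with shRNA #2. That is 76.9% and 92.3% of them, against 66.1% and 66.9% of all genes. Among the falls with shRNA #2, those of VPS39, VPS11, VAMP8 and RAB7A had adjusted p from 0.0208 to 0.0314 by limma. The VAMP8 libraries with shRNA #2 overlapped those with NS shRNA. PLEKHM1, an adaptor of lysosome fusion, rose with shRNA #1 by 0.48 and fell with shRNA #2, with a log2 change of -0.57 (adjusted p = 3.49e-05 and 3.27e-05 by limma). TFEB, MITF, MTOR and PLEKHM1 were picked for mention after their values were seen, and none changed 2-fold. Other genes of these groups changed more. The regulator PRKAA2 rose by 0.22 and 0.93 (adjusted p = 0.0155 and 1.11e-06 by limma). Of the fusion genes, TECPR1 fell with both hairpins, with log2 changes of -0.85 and -0.85 (adjusted p = 1.71e-06 and 3.93e-06 by limma). EPG5 rose by 0.84 and 0.26 (adjusted p = 1.15e-06 and 0.00199 by limma).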

How the data were processed

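Per the labels and the paper's methods, the authors used Trimmomatic 0.36 for trimming, STAR 2.7.1a with hg38 for alignment and htseq-count (UCSC genes, reverse strand) for counting, and ran DESeq2 1.28 on each ASAH1 shRNA with NS shRNA. Another methods paragraph names RSEM, TMM and edgeR. The labels describe poly(A) selection, the series text ribosomal RNA depletion. The deposited values are a normalized signal per gene and library (read counts divided by a size factor) and its mean. The authors' own log2 fold changes, Wald scores and p-values were deposited beside them and were not used. Whole reads were recovered for 100% of values (within 0.001 of a whole number), and NS shRNA reads differed between the tables in 0 cases. On these reads edgeR called 4731 genes higher and 4806 lower with shRNA #1 than with NS shRNA, and 4802 and 4783 with shRNA #2.

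Symbols turned into dates (28) were taken from the other table. RUBCN and RETREG1 are listed under older symbols, and 1 gene of the pathway list is not reported here. The members and lists were chosen with earlier results of these data known. Each comparison with NS shRNA was fitted within its table by limma 3.58.1 (trend on intensity) after taking log2(value + 1). The test was two-sided, genes whose mean fell below 10 were left out, and p-values were adjusted by Benjamini-Hochberg at 0.05. Hairpins were compared by edgeR 4.0.16 (quasi-likelihood, TMM, filterByExpr) on all 9 libraries, whose standard errors derive from the F statistic. Every library is given for members with a change of at least 1.5-fold (0.58 on the log2 scale) and an adjusted p below 0.05 in a comparison with NS shRNA, or with opposite calls. Genes of the pathway list are named at 2-fold. Alternatives were pseudocounts of 0.1 and 5, no filter, a mean of at least 50, no trend, upper quartile scaling, edgeR and DESeq2 1.42.0 on reads, limma on log2 CPM for the hairpins, a replicate block and leaving out each library. Fits of shRNA #1 against NS shRNA were run on simulated reads with 200 changed genes, far fewer than the 9479 that passed here. The comparison between the hairpins was not simulated. R 4.3.3 and Python 3.11.15 were used. Depth limits genes with few reads.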

Additional observations from a re-analysis of the deposited data

Results flagged for a closer look

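Of the autophagy genes, 3 passed against NS shRNA in opposite directions with the hairpins and also differed in the direct test between them. That is 7.32% of the 41, where 7.97% of the 14074 genes tested in all 3 comparisons did so. Between the hairpins, with shRNA #1 as the base, the log2 ratio was -1.18 (SE 0.053, adjusted p = 1.07e-08 by edgeR) for ATG2A, -0.88 (SE 0.069, adjusted p = 6.87e-07 by edgeR) for WIPI1 and 0.53 (SE 0.058, adjusted p = 9.70e-06 by edgeR) for PIK3R4. In each case all 3 libraries of one knockdown lay above all 3 NS shRNA libraries and all 3 of the other below them. Both comparisons share the NS shRNA libraries.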

How the results depend on the processing

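ASAH1 kept its call and direction under every alternative run. Of the 123 results of the 41 genes (3 comparisons each), 86 kept both throughout, 24 changed their call under some alternative and 13 their sign, and 0 of those that passed changed sign. Between libraries of the same replicate number, deviations from the group means had correlations from -0.257 to 0.189 (0.0459 to 0.189 between the hairpins). With 3 libraries per group, and no comparison with unlike numbers, these cannot decide whether the numbers pair the libraries. With the replicate block, 17 of the 41 genes rose and 10 fell with shRNA #1, 16 and 11 with shRNA #2, and 10 were higher and 15 lower with shRNA #2 than with shRNA #1, while the pathway list had 12 lower genes with shRNA #2 in place of 19. The block ended the calls of AMBRA1, ATG4A, ATG10, ATG12 and GABARAP with shRNA #1, of UVRAG, GABARAPL2 and RETREG1 with shRNA #2, and of ATG5, GABARAPL1 and FOXO1 between the hairpins. With upper quartile normalization, 7 of the 41 were higher with shRNA #2 than with shRNA #1 in place of 12. This scaling moved the median of all genes from -0.0052 to -0.087 and the share of calls that were higher from 49.2% to 40%, and for shRNA #2 against NS shRNA the median moved from 0.013 to -0.032.

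When each library was left out in turn, 17 to 19 of the 41 rose and 11 to 13 fell with shRNA #1, 16 to 17 rose and 11 to 12 fell with shRNA #2, and 9 to 13 were higher and 15 to 16 lower with shRNA #2 than with shRNA #1. In the pathway list the counts were 18 to 20 and 14 to 16, 11 to 13 and 15 to 18, and 12 to 13 and 18 to 21. Between the hairpins, the call of GABARAPL1 held only without shRNA #2 replicate 2, those of ATG4B, ATG5 and FOXO1 were lost in 4 of 9 fits each, and those of TAX1BP1 and ULK2 were lost without shRNA #1 replicate 2 and shRNA #1 replicate 3. ATG2B passed in 4 of 9 and ATG4A without shRNA #2 replicate 1. Against NS shRNA, ATG4C passed with shRNA #1 without NS shRNA replicate 1, and ATG4B passed with shRNA #1 and shRNA #2 without replicate 3 and replicate 2 of the respective hairpin. Signs changed for values near 0, and the cause was not tested. Against NS shRNA these were STX17 with shRNA #1 (-0.073 to 0.023 as each library was left out) and, with shRNA #2, RB1CC1 (-0.081 to 0.013), ATG4D (-0.090 to 0.020), ATG7 (-0.041 to 0.011), NBR1 (-0.016 to 0.016, and 0.00032 with edgeR) and TMEM41B (-0.0081 with upper quartile rescaling). Between the hairpins they were PIK3C3 (-0.063 to 0.0017), ATG12 (-0.066 to 0.046), CALCOCO2 (-0.021 to 0.0023), ATG9A (-0.022 to 0.042, and 0.0057 with no filter and with DESeq2), WIPI2 (-0.012 to 0.030, and -0.072 with upper quartile normalization), GABARAPL2 (-0.039 to 0.070, and -0.055) and ATG13 (-0.062 with upper quartile normalization).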
